A study of Rattus norvegicus with 9 samples.

Results

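Chemokines and their receptors were described in rat liver as the genes whose symbol begins with Ccl, Cxcl, Ccr, Cxcr or Ackr followed by a digit. The rule used names only and found 50 of the 24496 genes in the deposited count table: 20 CC ligands, 12 CXC ligands, 9 CC receptors, 6 CXC receptors and 3 atypical receptors. Chemokine genes with other names, such as Cx3cl1, Xcl1 and Pf4, fall outside the rule and are given as a separate list. The 9 libraries each came from the liver of 1 female wild-type Wistar rat aged 19 weeks. All 9 rats ate western diet from 10 weeks of age, had their ovaries removed after 6 weeks of it, and were given degarelix, which blocks the receptor for gonadotropin-releasing hormone. Osmotic pumps carried vehicle alone in 5 rats (vehicle group), and in the other 4 (FSH group) they delivered follicle-stimulating hormone at a daily dose of 6 µg per kg, so both groups lacked ovaries and had degarelix on board. The rats were fed a limited amount over 12 days and ate freely over 7 days, with a fast of 4 h before tissue collection. The comparison asks whether FSH alters chemokine transcripts of the liver in ovariectomised rats given degarelix.

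Chemokines are small secreted proteins that steer leukocytes along concentration gradients and act through receptors coupled to G proteins. CC and CXC ligands are named for the spacing of the first cysteines of the mature protein, and atypical receptors bind chemokines without G protein signalling, so that they take ligand up or shape its gradient. In liver, Kupffer cells (the resident macrophages), sinusoidal endothelium, stellate cells, bile duct cells and hepatocytes can all make chemokines, while most of the receptors sit on leukocytes. In whole liver, fewer cells of a type and less RNA per cell cannot be told apart.

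Library totals ran from 19295580 to 28672439 reads, and the chemokine and receptor genes together took 0.124 to 0.159% of them. Albumin, the defining hepatocyte transcript, took 10.5 to 19.4% of the reads, the most in FSH replicate 1, which also stood furthest out on the second principal component of all tested genes (a score of 33.8). Levels are given as CPM, the reads of a gene per 1000000 reads of its library after scaling for library composition, where 1 read is worth 0.0353 to 0.0532 CPM. Transcript lengths were not used, so a level is compared between libraries and not between genes.

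The liver held reads of most of these genes, but nearly all reads belonged to very few. Of the 50 members, 42 had at least 1 read in at least 1 library and 31 had at least 10 reads over the 9 libraries. Each library had reads for 31 to 36 members. Ccl9, Ccl6 and Cxcl12 together held 89.7 to 92.9% of all member reads in a library, with 188685 reads for Ccl9, 68947 for Cxcl12 and 21800 for Ccl6 in total. The filter on low counts kept 25 members for testing, which had between 81 and 188685 reads: 11 CC ligands, 8 CXC ligands, 3 CXC receptors, 3 atypical receptors and 0 CC receptors. The plot of read totals by gene shows the ladder within each class.

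**Figure D1:**
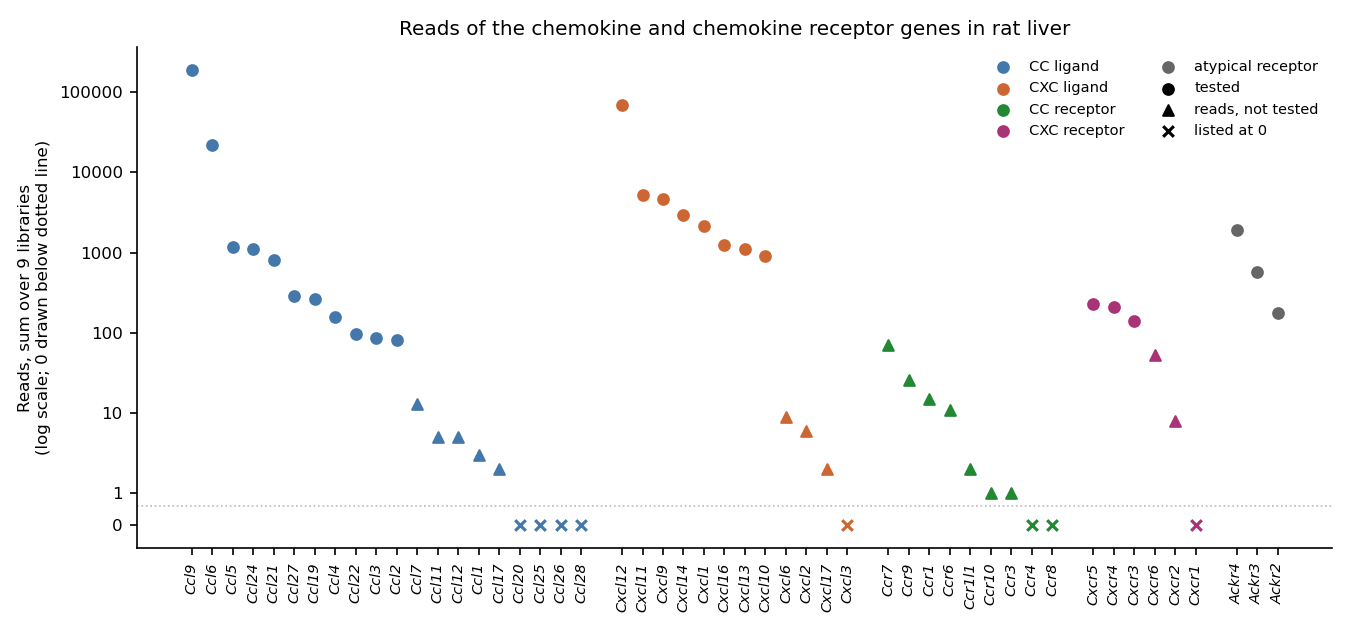
Read totals over the 9 libraries (log axis) for the 50 members, grouped and coloured by class, with circles for tested genes, triangles for genes with reads that were not tested and crosses for genes listed at 0. Ccl9, Cxcl12 and Ccl6 stand above all others, and no CC receptor reached the filter.

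The other 17 detected members had 1 to 71 reads in total and were not tested. Among the CC receptors these were Ccr7, the homing receptor of lymphocytes and mature dendritic cells (71 reads), Ccr9, a gut-homing receptor (26), Ccr1 (15), Ccr6 (11), Ccr1l1 (2), Ccr3 (1) and Ccr10 (1). Of the CXC receptors, Cxcr6, which marks liver-resident lymphocytes, had 53 reads and Cxcr2, the main neutrophil receptor for Cxcl1, had 8. The ligands in this group were Ccl7 (13 reads), Ccl11 (5), Ccl12 (5), Ccl1 (3), Ccl17 (2), Cxcl6 (9), Cxcl2 (6) and Cxcl17 (2). The remaining 8 members were listed at 0 in all libraries: Ccl20, Ccl25, Ccl26, Ccl28, Cxcl3, Ccr4, Ccr8 and Cxcr1. A count of 0 allows up to 3 reads, or 0.106 to 0.159 CPM per library (counting error only), and all 13 mitochondrially encoded genes were also listed at 0 here, so a 0 cannot be read as no expression.

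With FSH, no member passed an adjusted p (FDR) of 0.05 in edgeR's quasi-likelihood test, where 4 of 11924 genes did (0.0335%). DESeq2 and limma-voom, the latter run with a quality weight for each library, also called 0 of the tested members, although 3 of the 25 had no adjusted p in DESeq2. Fold changes were higher in 14 of the 25 tested members and lower in 11, with a median log2 fold change (FSH over vehicle) of 0.10, against 0.0019 over all genes tested. At an unadjusted p under 0.05 there was 1 member higher (Cxcl1) and 0 lower, against 6.42% of all genes higher and 5.14% lower. Which members passed that unadjusted threshold changed with the tool and its settings. In DESeq2 they were Cxcl1 (higher), Cxcl13 and Cxcl9 (both lower), in limma-voom Ccl2 alone (lower), with Cxcl1 at an unadjusted p = 0.226, and with a replicate block in edgeR Cxcl12 alone (higher), with Cxcl1 at an unadjusted p = 0.388. In 0 of the 25 did every FSH library lie above or below every vehicle library, where 2.19% of all genes lay wholly above and 1.92% wholly below. Without vehicle replicate 2 the median was −0.019, and 2 members, Cxcl9 and Cxcl10, then had every FSH library below every vehicle library, as did 2.7% of all genes in those 8 libraries. A p over the threshold does not show that a gene was unaltered, and members near 1 CPM rest on few reads.

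**Figure D2:**
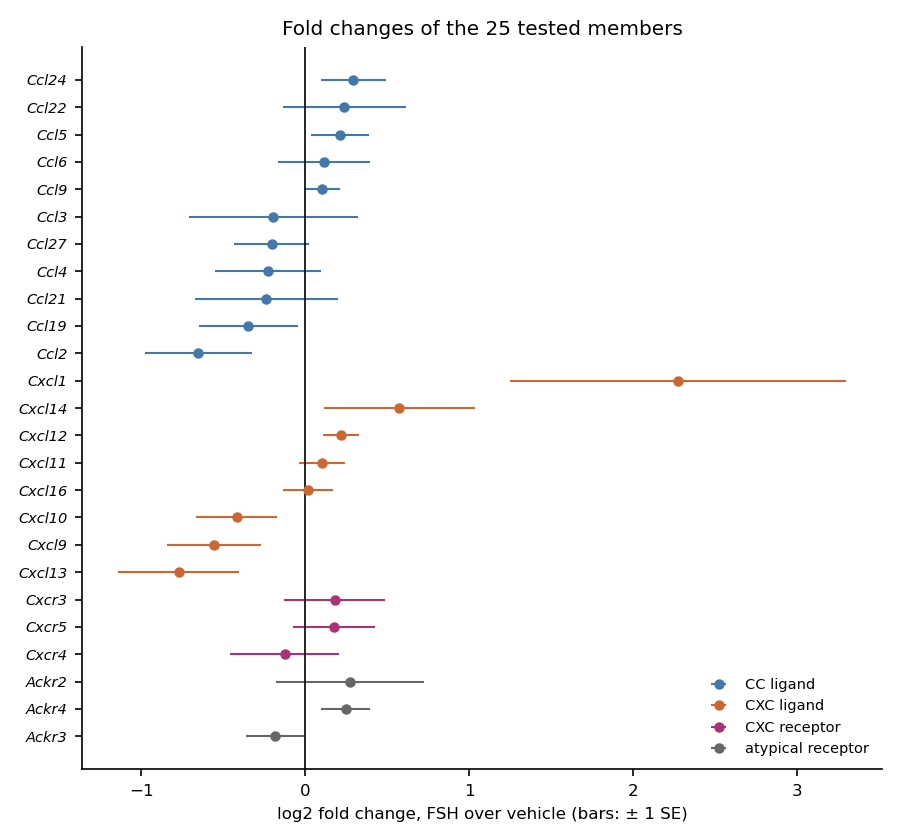
log2 fold change (FSH over vehicle) of the 25 tested members, by class, with bars of ± 1 standard error; the vertical line marks no difference. Cxcl1 lies furthest to the right at 2.28 with the longest bar, and 0 members passed the adjusted threshold.

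Among the CC ligands, 5 of 11 tested had higher and 6 lower fold changes, with a median of −0.19, and none had an unadjusted p under 0.05 in edgeR. Ccl9 (ENSRNOG00000028548), a CC ligand that attracts myeloid cells, stood at 823, 899, 754, 714 and 1017 CPM in vehicle replicates 1 to 5 and at 866, 927, 928 and 897 CPM in FSH replicates 1 to 4. All FSH values lay within the vehicle range and were close to each other. The FSH mean was 904 ± 29.4 CPM (SD, n = 4) and the vehicle mean 841 ± 121 CPM (n = 5), a log2 fold change of 0.10 (adjusted p = 0.762 in edgeR, SE 0.11).

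Ccl6 (ENSRNOG00000030021), its neighbour in the reference annotation and also a ligand of myeloid cells, read 107, 45.7, 95.1, 101 and 142 CPM in the vehicle rats and 78.7, 98.3, 148 and 100.1 CPM in the FSH rats, in order of replicate number. Vehicle replicate 2 was lowest and FSH replicate 3 highest of all 9, and the groups overlapped. Its log2 fold change was 0.12 (adjusted p = 0.912 in edgeR, SE 0.28) and −0.091 without FSH replicate 3. Ccl6 and Ccl9 lie in a run with Ccl5, Ccl3 and Ccl4, whose sequences are alike, so reads shared among relatives are uncertain.

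Ccl6 followed the macrophage markers from library to library. The summed level of 11 macrophage markers, among them Clec4f, Vsig4, Cd68 and the C1q chains, was 778, 348, 702, 684 and 916 CPM in the vehicle libraries and 551, 646, 861 and 629 CPM in the FSH libraries. Vehicle replicate 2 had the lowest value of all 9 libraries for each of the 11 markers. Over the 9 libraries the correlation of log2 levels between Ccl6 and this sum was r = 0.979 (exact permutation p = 0.00014, adjusted over 25 members p = 0.0034) and rho = 0.867 (exact permutation p = 0.0045, adjusted p = 0.11). It was r = 0.907 without vehicle replicates 2 and 5, the libraries furthest from the median of the sum. For Ccl9 the same comparison gave r = 0.0812 (exact permutation p = 0.834) and rho = 0.25 (exact permutation p = 0.521), and r = −0.00022 without those libraries. Ccl22, a ligand made by macrophages and dendritic cells, had the next highest r, at 0.894 (exact permutation p = 0.0060, adjusted p = 0.0753), with rho = 0.75 (exact permutation p = 0.0255, adjusted p = 0.319) and r = 0.767 without the same libraries. Only the r of Ccl6 passed the adjusted threshold among the 25 members, and no rho did. All levels share their library, and groups of 4 and 5 are too small for a value within each.

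**Figure D3:**
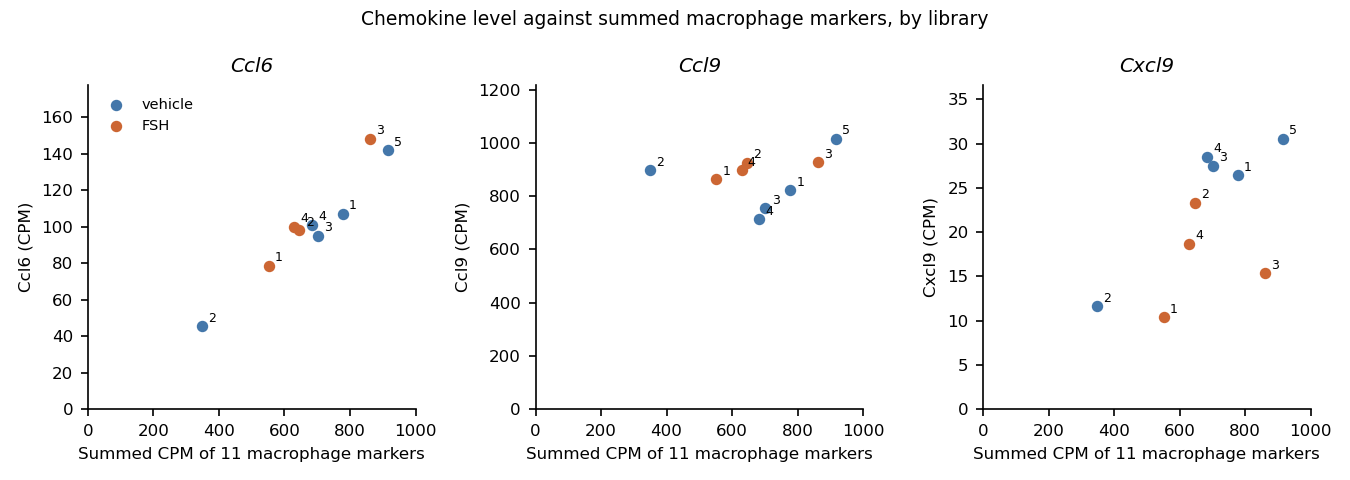
Level of Ccl6, Ccl9 and Cxcl9 (y axis, CPM) against the summed CPM of 11 macrophage markers (x axis), with 1 point per library, numbered by replicate and coloured by group. Ccl6 climbs with the marker sum and is lowest in vehicle replicate 2 (45.7 CPM), which also has the lowest sum. It is highest in FSH replicate 3 (148 CPM), whereas the sum is highest in vehicle replicate 5 (Ccl6 at 142 CPM). Ccl9 stays between 714 and 1017 CPM.

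Ccl5, a ligand of T cells and monocytes, stood at 5.76, 3.85, 4.31, 6.39 and 5.1 CPM with vehicle and 5.08, 5.4, 7.6 and 5.45 CPM with FSH. FSH replicate 3 was the highest library, and the other FSH values lay within the vehicle range. Its log2 fold change was 0.21 (adjusted p = 0.69 in edgeR, SE 0.18), which was 0.063 without that library. Ccl24, an eotaxin that attracts eosinophils, read 3.77, 5.51, 4.31, 4.62 and 4.57 CPM with vehicle and 8.22, 5.52, 4.47 and 4.19 CPM with FSH. FSH replicate 1 alone stood clearly above the vehicle libraries, and the log2 fold change of 0.30 (adjusted p = 0.615 in edgeR, SE 0.20) was 0.051 without it.

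Ccl19 and Ccl21 are the ligands of Ccr7 and guide dendritic cells and lymphocytes toward lymphoid tissue. Ccl21 was at 1.57, 6.23, 1.38, 6.35 and 3.77 CPM in the vehicle rats, with replicates 2 and 4 far above replicates 1 and 3. In the FSH rats it was at 3.14, 2.48, 3.47 and 4.11 CPM, inside the vehicle range in every library. Its log2 fold change was −0.24 (adjusted p = 0.876 in edgeR, SE 0.44) and changed sign with a replicate block (0.017). Ccl19 was at 1.57, 2.02, 1.06, 1.26 and 0.585 CPM with vehicle and 0.913, 1.01, 1.2 and 0.994 CPM with FSH, again with the wider spread among vehicle rats (log2 fold change −0.35, adjusted p = 0.705 in edgeR, SE 0.30). Ccl27, a ligand known for skin homing of T cells, sits beside both genes in the annotation. It stood at 1.31, 1.3, 0.989, 1.74 and 1.75 CPM with vehicle and 0.874, 1.5, 1.35 and 1.17 CPM with FSH, with overlapping groups (log2 fold change −0.20, adjusted p = 0.779 in edgeR, SE 0.23).

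Ccl2, the ligand that draws monocytes through Ccr2, had 5 to 15 reads per library. It was at 0.524, 0.288, 0.53, 0.474 and 0.425 CPM with vehicle and 0.238, 0.203, 0.463 and 0.216 CPM with FSH. FSH replicates 1, 2 and 4 lay below every vehicle library and replicate 3 lay among them. The log2 fold change was −0.65 (adjusted p = 0.485 in edgeR, SE 0.33), and −1.01 without FSH replicate 3 (edgeR adjusted p = 0.41), when 2.94% of all genes had every FSH library below every vehicle library, as Ccl2 did. Its neighbours Ccl7, Ccl11, Ccl12 and Ccl1 had too few reads to be tested. The other tested CC ligands, Ccl3, Ccl4 and Ccl22, had 86 to 157 reads in total and log2 fold changes of −0.19 (SE 0.52), −0.23 (SE 0.32) and 0.24 (SE 0.37).

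**Figure D4:**
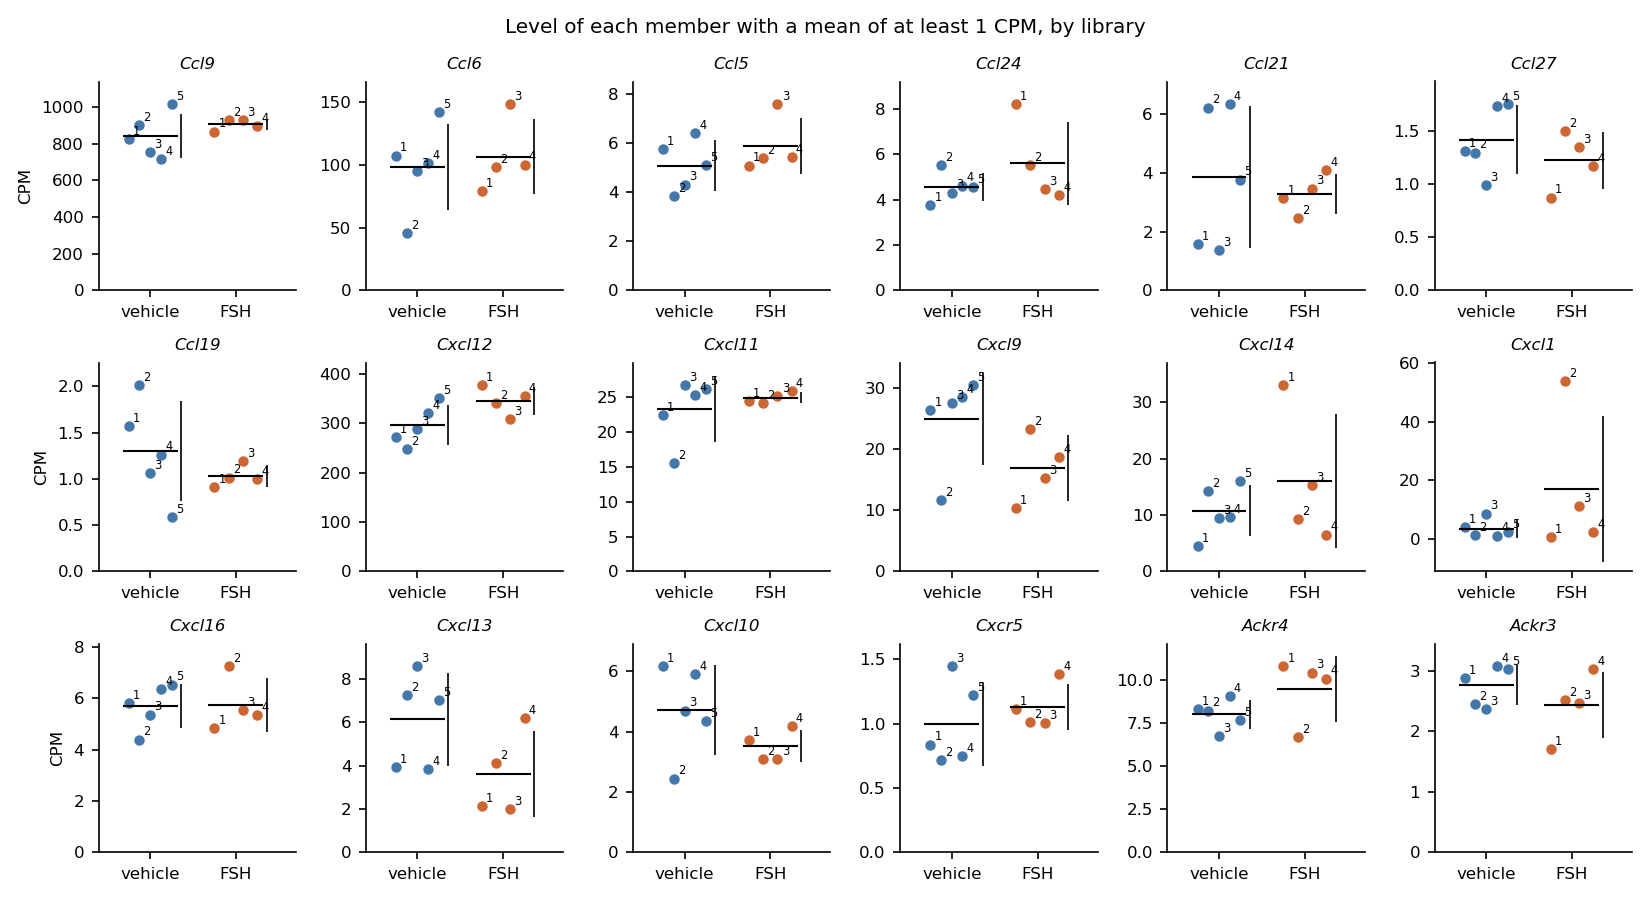
Level (CPM, linear axis) of the 18 members with a mean of at least 1 CPM, with 1 point per library numbered by replicate, a horizontal line at the group mean and a vertical bar of ± 1 SD. In each gene the FSH and vehicle points overlap, and the separate points of Cxcl1 (FSH replicate 2), Cxcl14 (FSH replicate 1) and Cxcl9 (vehicle replicate 2) can be seen.

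Of the 8 tested CXC ligands 5 had higher and 3 lower fold changes, with a median of 0.060. Cxcl12 (ENSRNOG00000013589), the homeostatic ligand of Cxcr4 and Ackr3 that stromal and endothelial cells make, was the most heavily read of them. It stood at 272, 247, 289, 320.1 and 351 CPM in vehicle replicates 1 to 5 and at 377, 339.6, 307 and 354 CPM in FSH replicates 1 to 4. FSH replicates 1 and 4 lay above every vehicle library, and FSH replicates 2 and 3 lay within the vehicle range. The means were 345 ± 29.2 CPM (SD, n = 4) and 296 ± 40.7 CPM (n = 5), a log2 fold change of 0.22 (SE 0.11, unadjusted p = 0.0716 and edgeR adjusted p = 0.484 in the fit across all genes). The summed level of 9 endothelial markers was 228 to 302 CPM with vehicle and 266 to 345 CPM with FSH. In fold change 7 of the 9 were higher and 2 lower, and 0 passed the adjusted threshold in edgeR. At an unadjusted p under 0.05 there were 4, all higher, where 6.42% of all genes tested were higher at that threshold. Clec4g and Stab1 had every FSH library above every vehicle library, as in 2.19% of all genes tested. The summed level of 9 stellate cell markers was 225 to 290.02 CPM with vehicle and 177 to 211 CPM with FSH. The stellate sums did not overlap, but they were mostly Col3a1, at 141 to 193 CPM with vehicle and 101 to 129 CPM with FSH. Of the 9 stellate markers only Col3a1 had its groups apart, where 1.92% of all genes tested lay wholly below. In fold change 8 of the 9 were lower, and Rgs5 was higher (log2 fold change 0.37). At an unadjusted p under 0.05 in edgeR there were 2, both lower, where 5.14% of all genes tested were lower at that threshold. The part of these markers in the value of Cxcl12 was not tested.

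Cxcl1 is a neutrophil-attracting ligand of Cxcr2 whose gene responds to NF-kappaB. Its upstream sequence and that of its neighbour Cxcl2, another ligand of Cxcr2, are shown because Cxcl1 had the widest spread between animals of the tested members while Cxcl2 had almost no reads. The sequences are from RefSeq (GRCr8, another build than the rn6 that the submitters name) and run 5′ to 3′ with the gene for the 250 bases before its start. Cxcl1 lies at chr14:17479322-17479571 and Cxcl2 at chr14:17467256-17467505, both on the minus strand. Capitals mark matches to the 2 short NF-kappaB motifs that were searched, GGGNNTTTC and GGGNNTTCC, on either strand.
Cxcl1: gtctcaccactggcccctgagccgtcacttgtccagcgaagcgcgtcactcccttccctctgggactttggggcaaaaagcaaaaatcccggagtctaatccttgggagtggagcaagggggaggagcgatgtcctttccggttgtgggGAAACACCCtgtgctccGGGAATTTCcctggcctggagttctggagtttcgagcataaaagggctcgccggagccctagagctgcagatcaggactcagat
Cxcl2: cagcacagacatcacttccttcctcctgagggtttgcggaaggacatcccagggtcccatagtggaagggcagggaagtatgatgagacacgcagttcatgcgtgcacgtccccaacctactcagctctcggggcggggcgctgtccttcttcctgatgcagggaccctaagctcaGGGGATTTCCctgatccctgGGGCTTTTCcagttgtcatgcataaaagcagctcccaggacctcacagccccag

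Both windows hold matches close before the gene start. The forward match of Cxcl1 spans bases −84 to −76, a second one runs on the reverse strand from −101 to −93, and Cxcl2 has forward matches from −74 to −65 (both motifs, overlapping) and from −54 to −46. Promoters were found by symbol for 38 of the 50 members. At least 1 of these motifs was in 12 of those 38 (31.6%) and in 9.76% of all 33469 promoter windows of 300 bases. A match is a description of letters and shows neither binding nor use.

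The 2 genes gave very different reads. Cxcl1 (ENSRNOG00000002802) stood at 3.98, 1.22, 8.69, 1.14 and 2.34 CPM in vehicle replicates 1 to 5 and at 0.715, 53.8, 11.2 and 2.25 CPM in FSH replicates 1 to 4. FSH replicates 2 and 3 were above all vehicle libraries, FSH replicate 1 was below them all, and FSH replicate 4 lay in between. The means were 17 ± 25 CPM (SD, n = 4) and 3.48 ± 3.13 CPM (n = 5), so that the SD exceeded the mean in the FSH group. The log2 fold change of 2.28 (SE 1.02, unadjusted p = 0.0492, edgeR adjusted p = 0.431) came to 0.44 without FSH replicate 2 and to 3.01 without vehicle replicate 3. Cxcl2, Cxcl3 and Cxcl6, the other members of this run of genes, had 0 to 4 reads together in any library, 4 of them in FSH replicate 2, where Cxcl1 had 1326.

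The neutrophil marker sum was not at its highest in FSH replicate 2, whereas the sum of the list of inflammatory cytokines, their receptors and NF-kappaB was. The latter stood at 725, 809.8, 799 and 677 CPM in FSH replicates 1 to 4 and at 636 to 728 CPM with vehicle. Receptor genes made up most of it, with Il6r at 190 CPM, Il1r1 at 144 CPM and Tnfrsf1a at 134 CPM in FSH replicate 2. Some genes of the list, such as Il1r1, were highest in that library and others were not. Tnfrsf1a (169 CPM) and Il1b (8.64 CPM) were highest in FSH replicate 3, and Il6r (223 CPM) in vehicle replicate 3. The summed level of 8 neutrophil markers was 1.15 to 3.75 CPM with vehicle and 1.47, 2.60, 4.13 and 4.06 CPM in FSH replicates 1 to 4, with S100a9 at 0.852 CPM in FSH replicate 2 and 1.47 CPM in replicate 3. None of the 8 was at 0 in all libraries, but Mpo, the neutrophil myeloperoxidase, had 4 reads in total. Nfkbia, the inhibitor that NF-kappaB itself induces, was at 28.2, 30.3, 28.5 and 28.9 CPM in FSH replicates 1 to 4 and at 26.8, 29.8, 26.6, 31.4 and 27 CPM in the vehicle libraries. Nfkbiz, an atypical inhibitor that assists some NF-kappaB targets, read 15.1, 27.5, 17.3 and 13.6 CPM with FSH and 17, 18.7, 30.0, 13.8 and 16.7 CPM with vehicle. In each group its highest library was the one with the most Cxcl1, FSH replicate 2 and vehicle replicate 3. This pairing was picked out after the values were seen, and the part of these genes in the level of Cxcl1 was not tested.

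Cxcl9, Cxcl10 and Cxcl11 are the ligands of Cxcr3, which steers activated T cells and NK cells, and are textbook targets of interferon gamma. The genes lie side by side, and their upstream sequences are shown because the neighbours share a receptor and an inducer, and their reads are set against each other within each library. They come from RefSeq (GRCr8, plus strand): Cxcl9 at chr14:16006916-16007165, Cxcl10 at chr14:15988816-15989065 and Cxcl11 at chr14:15973478-15973727. Capitals mark the NF-kappaB motifs given above, an interferon response motif (GAAANNGAA) and the TATA motif (TATAAA), on either strand.
Cxcl9: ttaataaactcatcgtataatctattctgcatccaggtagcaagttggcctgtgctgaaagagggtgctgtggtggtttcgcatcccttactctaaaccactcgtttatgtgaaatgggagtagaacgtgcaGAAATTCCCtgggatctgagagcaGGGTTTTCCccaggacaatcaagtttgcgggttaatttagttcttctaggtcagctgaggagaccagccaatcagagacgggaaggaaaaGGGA
Cxcl10: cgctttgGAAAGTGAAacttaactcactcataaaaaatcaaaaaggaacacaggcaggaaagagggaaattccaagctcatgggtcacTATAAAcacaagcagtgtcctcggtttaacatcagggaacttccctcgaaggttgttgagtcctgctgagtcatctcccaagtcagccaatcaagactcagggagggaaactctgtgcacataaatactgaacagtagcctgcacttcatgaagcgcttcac
Cxcl11: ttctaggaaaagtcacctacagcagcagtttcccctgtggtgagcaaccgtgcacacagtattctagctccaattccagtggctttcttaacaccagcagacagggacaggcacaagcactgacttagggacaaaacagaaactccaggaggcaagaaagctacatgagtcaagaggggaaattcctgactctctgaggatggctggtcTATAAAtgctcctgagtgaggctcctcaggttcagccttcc

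For the motifs searched, the capitals differ between the neighbours. Cxcl9 holds NF-kappaB matches at −118 to −110 (reverse strand) and −94 to −86, and another that crosses the gene start, of which the last 4 printed bases show the beginning. Cxcl10 holds the interferon motif at −243 to −235 and a TATA match at −162 to −157, and Cxcl11 a TATA match at −41 to −36. The interferon motif was in 2 of the 38 members with a promoter (5.26%), Cxcl10 and Ccl19, and in 9.71% of all windows, and TATAAA was in 11 of 38 (28.9%) and 14.2%. The absence of a match says only that these letters are not in this window. The printed windows of Cxcl10 and Cxcl11 both hold gggaaattcc, which is GGGNNTTCC with a further base between its ends. That longer form was not searched for, so the capitals do not show that Cxcl9 alone has such a site.

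Cxcl9 (ENSRNOG00000022242) stood at 26.4, 11.7, 27.5, 28.5 and 30.6 CPM in vehicle replicates 1 to 5 and at 10.4, 23.3, 15.3 and 18.7 CPM in FSH replicates 1 to 4. All FSH rats lay below 4 of the 5 vehicle rats, and vehicle replicate 2 was low among the vehicle rats. The means were 17 ± 5.46 CPM (SD, n = 4) and 24.9 ± 7.58 CPM (n = 5), a log2 fold change of −0.56 (adjusted p = 0.496 in edgeR, SE 0.29), and −0.74 without vehicle replicate 2 (SE 0.20, edgeR adjusted p = 0.325).

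Cxcl10 (ENSRNOG00000022256) was at 6.18, 2.45, 4.7, 5.92 and 4.36 CPM with vehicle and 3.73, 3.08, 3.09 and 4.19 CPM with FSH, again with all FSH rats below every vehicle rat but replicate 2. Its log2 fold change was −0.42 (adjusted p = 0.559 in edgeR, SE 0.24), and −0.59 without vehicle replicate 2 (SE 0.16, edgeR adjusted p = 0.325). Cxcl11 (ENSRNOG00000022298) read 22.5, 15.6, 26.8, 25.3 and 26.2 CPM with vehicle and 24.5, 24.2, 25.2 and 25.9 CPM with FSH. The FSH values all lay within the vehicle range, close together, and only vehicle replicate 2 was low (log2 fold change 0.10, adjusted p = 0.828 in edgeR, SE 0.14).

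Set against each other within a library, there were 1.17, 0.75, 1.03, 1.13 and 1.17 Cxcl9 reads per Cxcl11 read in vehicle replicates 1 to 5 and 0.425, 0.965, 0.609 and 0.722 in FSH replicates 1 to 4. For Cxcl10 per Cxcl11 read these were 0.275, 0.157, 0.175, 0.234 and 0.166, and 0.153, 0.128, 0.122 and 0.162. Both ratios overlapped between the groups, were formed after the values were seen and were not tested. The summed level of 11 T, NK and B cell markers was 20.7, 12.9, 22.0, 30.03 and 33.4 CPM with vehicle and 14.7, 19.5, 28.3 and 19.6 CPM with FSH. It was lowest in vehicle replicate 2, but most of it was Cd4, which macrophages of the rat also express. Cd3d, Cd3e and Cd3g were not lowest there, with Cd3e at 0.144 CPM and at 0.0353 CPM in vehicle replicate 3. The part of these markers in the levels of the ligands was not tested. None of the 11 was at 0 in all libraries, and Cd3d, Cd3e and Cd3g had 20 to 54 reads in total. Correlations of Cxcl9 and Cxcl11 with the macrophage marker sum were r = 0.66 and 0.811 over 9 libraries (exact permutation p = 0.0433 and 0.0454, both adjusted p = 0.245) and rho = 0.667 and 0.45 (exact permutation p = 0.0589 and 0.23, adjusted p = 0.44 and 0.479). Without vehicle replicates 2 and 5 r was 0.37 and −0.126, so the relation of Cxcl11 rests on those libraries.

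Cxcl13, the ligand of Cxcr5 that gathers B cells into follicles, was at 3.93, 7.24, 8.59, 3.83 and 7.02 CPM in the vehicle rats and 2.14, 4.1, 2.01 and 6.18 CPM in the FSH rats. FSH replicates 1 and 3 lay below every vehicle library, and the other FSH rats within the vehicle range. It had the lowest fold change of the tested members, −0.77 on the log2 scale (SE 0.37, unadjusted p = 0.0609, edgeR adjusted p = 0.457). Leaving out FSH replicate 4 gave −1.16 (SE 0.35, edgeR adjusted p = 0.296).

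Cxcl14, a ligand of epithelia and macrophages, stood at 4.56, 14.3, 9.4, 9.55 and 15.9 CPM with vehicle and 33, 9.21, 15.2 and 6.53 CPM with FSH. FSH replicate 1 was the highest of all 9, and the other FSH values lay within the vehicle range. Its log2 fold change was 0.57 (adjusted p = 0.678 in edgeR, SE 0.46) and −0.057 without that library. Cxcl16, which is made in membrane-bound form and is the ligand of Cxcr6, read 5.81, 4.39, 5.37, 6.35 and 6.54 CPM with vehicle and 4.84, 7.26, 5.55 and 5.36 CPM with FSH, with the FSH group on both sides of the vehicle mean (log2 fold change 0.019, adjusted p = 0.976 in edgeR, SE 0.15).

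Of the 18 receptors 6 were tested, with 139 to 1890 reads in total, and none of the 6 had an unadjusted p under 0.05 in edgeR. Cxcr5 was at 0.838, 0.72, 1.45, 0.75 and 1.22 CPM with vehicle and 1.11, 1.01, 1 and 1.38 CPM with FSH (log2 fold change 0.18, adjusted p = 0.832 in edgeR, SE 0.25), with all FSH values inside the vehicle range. Cxcr3, the receptor of Cxcl9 to Cxcl11, and Cxcr4, the receptor of Cxcl12, had log2 fold changes of 0.18 (SE 0.31) and −0.12 (SE 0.33), from 139 and 208 reads in total. The value of Cxcr4 was 0.13 without vehicle replicate 4.

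The 3 atypical receptors that the rule found were all tested, and Ackr1 was not in the count table under that symbol. Ackr4, which scavenges Ccl19 and Ccl21, was at 8.28, 8.21, 6.75, 9.08 and 7.66 CPM with vehicle and 10.8, 6.66, 10.4 and 10.1 CPM with FSH. FSH replicates 1, 3 and 4 lay above every vehicle library and FSH replicate 2 lay below them all. Its log2 fold change was 0.25 (adjusted p = 0.567 in edgeR, SE 0.15), and 0.38 without FSH replicate 2 (SE 0.11, edgeR adjusted p = 0.312), when 3.88% of all genes had every FSH library above every vehicle library, as Ackr4 did. Ackr3, which binds Cxcl12 and Cxcl11, was at 2.88, 2.45, 2.37, 3.08 and 3.03 CPM with vehicle and 1.71, 2.52, 2.47 and 3.03 CPM with FSH, with overlapping groups and FSH replicate 1 lowest (log2 fold change −0.18, adjusted p = 0.744 in edgeR, SE 0.18, and −0.045 without that library). Ackr2, a scavenger of inflammatory CC ligands, had 177 reads in total and a log2 fold change of 0.27 (SE 0.45), which was −0.085 without FSH replicate 4.

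**Figure D5:**
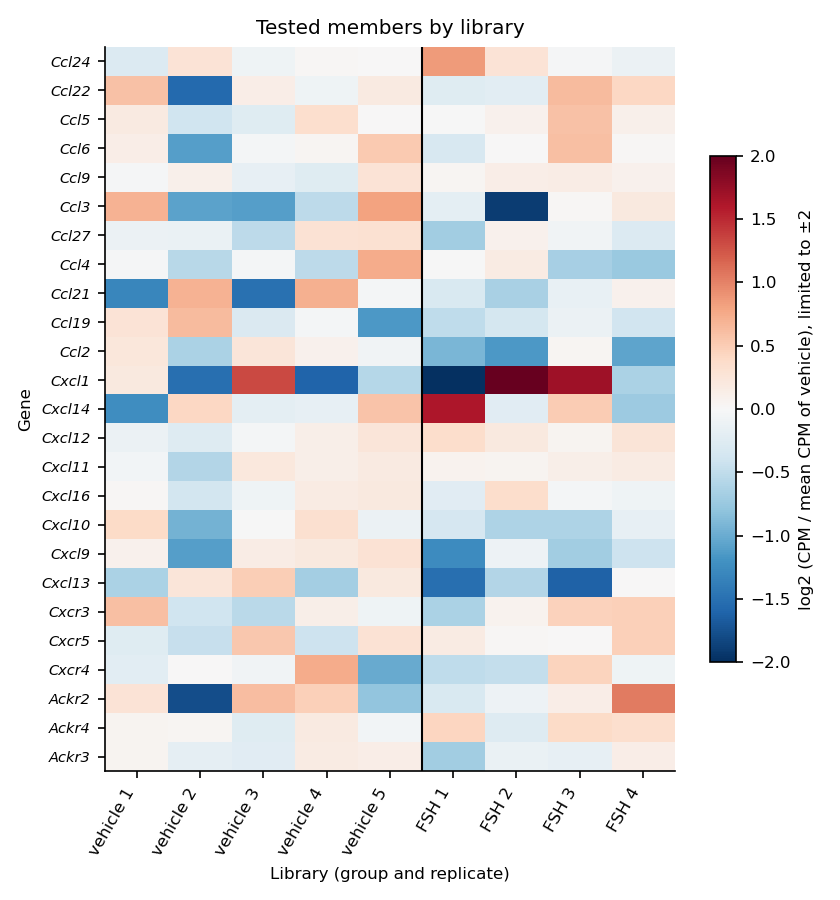
Each tested member (rows, by class) in each library (columns), coloured by log2 of its CPM over the vehicle mean and limited to ±2; the black line parts vehicle from FSH. No row changes colour at the line throughout, vehicle replicate 2 is blue in many rows, and Cxcl1 runs from dark blue (FSH replicate 1) to dark red (FSH replicate 2).

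The genes that lie upstream and downstream of chemokines gave no call either. In the list of inflammatory cytokines, their receptors and NF-kappaB, 18 of 22 genes were tested, 13 were higher and 5 lower with FSH, and 0 passed the adjusted threshold in edgeR (median log2 fold change 0.052). Over all genes tested 6022 were higher and 5902 lower. In that list 5 of the 18 genes had an unadjusted p under 0.05, all higher, where 6.42% of all genes tested did so in that direction and 5.14% in the other. Myd88, the adaptor of interleukin-1 and Toll-like receptors, had the smallest p of the list. It stood at 42.8, 37.2, 47.6, 41.9 and 47.6 CPM with vehicle and 51.6, 53.9, 59.5 and 60.7 CPM with FSH (log2 fold change 0.38, adjusted p = 0.204 in edgeR, SE 0.09). Every FSH library lay above every vehicle library, as in 2.19% of all genes tested. Tnfrsf1a, a receptor of tumour necrosis factor, had 0.45 (adjusted p = 0.321 in edgeR, SE 0.15). The other genes of the 5, named after their values were seen, were Il1a (0.57, SE 0.21), its receptor Il1r1 (0.56, SE 0.23) and Il1b (0.58, SE 0.26). Tnf, Il6 and Il17a, whose products induce many chemokines, were listed at 0 in all libraries.

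In the interferon gamma pathway 10 of 12 genes were tested, with 4 higher, 6 lower and 0 called (median −0.053). Ifngr2, a chain of the interferon gamma receptor, was at 17, 15.2, 19.9, 18.9 and 20.3 CPM with vehicle and 34.4, 24, 25.7 and 25.7 CPM with FSH. Its log2 fold change was 0.59 (adjusted p = 0.175 in edgeR, SE 0.12), and it was the only gene of the list with an unadjusted p under 0.05. At that threshold 6.42% of all genes tested were higher and 5.14% lower. All FSH libraries of Ifngr2 lay above all vehicle libraries, as in 2.19% of all genes tested. Ciita, the interferon-induced switch of MHC class II genes, had the next smallest p-value (0.33, SE 0.21), and Ifng itself was listed at 0 throughout. Of the genes that act behind chemokine receptors 15 of 17 were tested, 7 higher, 8 lower and 0 called (median −0.0089), the smallest p-values belonging to Gnai2, a G protein subunit (−0.15, SE 0.08), and Rgs2, which limits G protein signals (0.20, SE 0.22).

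Of the genes that hold or cut chemokines at the cell surface 13 of 15 were tested, 5 higher, 8 lower and 0 called (median −0.025). Ndst1, which sulfates the heparan chains that chemokines bind, had 0.35 (adjusted p = 0.293 in edgeR, SE 0.11), and Mmp2, a protease that trims chemokines, −0.39 (adjusted p = 0.39 in edgeR, SE 0.16). These 2 had an unadjusted p under 0.05, 1 higher and 1 lower. At that threshold 6.42% of all genes tested were higher and 5.14% lower.

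The list of chemokine system genes with other names held 15 symbols, of which 11 were in the table. The absent symbols were Mif, Darc, Ccbp2 and Ccrl1. Darc, Ccbp2 and Ccrl1 are older symbols of Ackr1, Ackr2 and Ackr4, and Ackr2 and Ackr4 were tested as members. Of the 11 genes 9 were tested, 5 higher, 4 lower and 0 called, none with an unadjusted p under 0.05 (edgeR, median 0.23). The smallest p-values belonged to Cmklr1, the receptor of the attractant chemerin (−0.56, SE 0.29), and to Rarres2, the gene of chemerin (−0.17, SE 0.09).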

How the data were processed

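Liver RNA was sequenced from 9 rats. The authors deposited 1 table of raw read counts per gene, whole numbers with no normalization; STAR, edgeR, DESeq2 and the rat build rn6 are named in the submitters' processing notes, while the sources used here do not give the counting tool, annotation or strand setting. Groups came from the sample titles, and replicates are separate animals. Genes were kept by edgeR's filterByExpr (11924 of 24496, holding 99.96% of reads), scaled by TMM and compared as FSH over vehicle with the quasi-likelihood test of edgeR 4.0.16 (R 4.3.3), with Benjamini-Hochberg adjustment over all genes tested at 0.05. The SE is the log2 fold change divided by the square root of F. DESeq2 1.42.0, limma-voom with library quality weights (limma 3.58.1), other scalings and filters, a replicate block, an FDR of 0.10 and leaving out each animal were alternatives. As a check of the code the fit was run on simulated counts. Its outcome is not given here and does not bear on fold changes as small as those of most members. Replicate libraries were not repeats of each other (smallest chi-square per degree of freedom 27.1).

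The members and gene lists were chosen with earlier results of these data known. Every member is accounted for: tested members get a fold change, and those with a mean of at least 1 CPM, an unadjusted p under 0.05 or 1 library standing apart get all values. Of other lists, at most the 2 genes with the smallest p are named, unless stated. Relations with macrophage markers used exact permutations over 9 libraries. Promoters, 250 bases before to 50 after a gene start, came from RefSeq (GRCr8) by symbol.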

Additional observations from a re-analysis of the deposited data

Results flagged for a closer look

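In 3 of the 50 sets of values (25 tested members in both groups), 1 animal stood apart from the rest of its group by Dixon's test, where chance gives about 2.5. Ccl2 was at 0.463 CPM in FSH replicate 3, with the next FSH library at 0.238 CPM, and Ccl5 was at 7.60 CPM in the same rat, with the next at 5.45 CPM. Cxcl9 was at 11.7 CPM in vehicle replicate 2, below the next vehicle library at 26.4 CPM. The macrophage marker sum was 861 CPM in FSH replicate 3, the highest of its group, and 348 CPM in vehicle replicate 2, the lowest of all libraries. Over the 9 libraries the correlation with that sum was r = 0.518 for Ccl2 (exact permutation p = 0.145), 0.658 for Ccl5 (p = 0.0588, exact permutation) and 0.66 for Cxcl9 (p = 0.0433, exact permutation), with p adjusted over 25 members of 0.351, 0.245 and 0.245; rho was 0.55 (exact permutation p = 0.133), 0.483 (exact permutation p = 0.194) and 0.667 (exact permutation p = 0.0589), each with an adjusted p of 0.44. Without vehicle replicates 2 and 5 r was 0.727, 0.592 and 0.37. The summed level of 4 erythroid genes was 490 CPM in FSH replicate 3 and 121 to 252 CPM in the other FSH libraries, and 75.9 to 157 CPM with vehicle. The part of the erythroid genes in these values was not tested.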

How the results depend on the processing

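No member was called under any alternative run. Over all genes 4 were called, against 177 with DESeq2, 12 at an FDR of 0.10 and 0 to 4 on leaving out 1 animal (0 without vehicle replicate 1 or 4 or FSH replicate 1 or 3). Members whose groups did not overlap numbered 0, and 0 to 2 on leaving out 1 animal: Cxcl9 and Cxcl10 (below) without vehicle replicate 2, Ackr4 (above) without FSH replicate 2 and Ccl2 (below) without FSH replicate 3. In the same direction and libraries the share of all genes was 2.7%, 3.88% and 2.94%. The smallest adjusted p of a member on leaving out an animal was 0.296 (edgeR). Detection fell from 42 members to 31 at 10 reads or more, and was 42 with all libraries thinned to the smallest total, an alternative chosen after seeing the data.

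Of 391 recomputed member fold changes 375 kept their direction and 16 reversed, in 10 of the 25 members; 0 reversed with other size factors or library totals. Same-numbered libraries did not deviate together (correlations −0.041 to 0.035 over 4 pairs, 0 of 4 FSH libraries closest to their own number). With the replicate block 5 genes and 0 members were called, and Ccl21 (0.017) and Ccl3 (0.080) reversed. On leaving out 1 animal the log2 fold change ran from −0.46 to 0.011 for Ccl21, −0.39 to 0.089 for Ccl3, −0.40 to 0.014 for Ccl4, −0.091 to 0.29 for Ccl6, −0.0031 to 0.41 for Ccl22, −0.019 to 0.16 for Cxcl11, −0.057 to 0.83 for Cxcl14, −0.12 to 0.093 for Cxcl16, −0.37 to 0.13 for Cxcr4 and −0.085 to 0.50 for Ackr2. The cause of these shifts was not tested. Members under 1 CPM rest on few reads per library.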
